A study of Mus musculus with 9 samples.

Results

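The genes described here are 47 genes of mitosis, chromosome condensation and sister chromatid separation, of 24503 gene symbols in a raw count table. They were taken by symbol from a list of mitotic kinases and cyclins, kinesins, spindle and kinetochore proteins, condensin, the Smc5/6 complex and the enzymes that establish, protect and release cohesion. All 47 had an entry in the table and all 47 passed the filter on low counts, with between 326 and 32207 counts per library. RNA came from primary mouse neural stem cells, cultured progenitors isolated from the embryonic cortex at day 13.5 and grown as neurospheres and then on laminin (5 µg/mL) with FGF (10 ng/mL) and EGF (20 ng/mL).

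There were 3 groups of 3 libraries. The cells of 2 groups were infected with virus carrying a short hairpin RNA against Rad21, shRad21_2 or shRad21_1, and those of the remaining group carried a non-targeting hairpin, shNT. All 3 groups shared the same genotype, a floxed Phf2 allele on both copies in otherwise wild type cells, and the labels name no Cre for any group. How long the cells were kept after infection is not stated by the labels. The labels do not say whether the libraries of a group came from separate cultures or animals, so p-values measure the spread between these libraries, which may be technical. In bulk RNA of this kind, fewer cells of a type and less RNA per cell cannot be told apart, which covers cells in mitosis too.

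Before a cell divides, cohesin holds the sister chromatids together, condensin I and condensin II compact them, and the mitotic kinases drive spindle assembly and watch over attachment at the kinetochore. The anaphase-promoting complex with its activator Cdc20 then marks securin and cyclin B for destruction, which frees separase to cut Rad21, the kleisin that closes the cohesin ring. Many of the genes involved are transcribed in G2 and M phase and are low at other times of the cell cycle.

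Rad21 itself had 82.0, 91.2 and 82.5 CPM in the shRad21_2 libraries, 187, 174 and 178 CPM in the shRad21_1 libraries and 531, 449.8 and 456 CPM in the shNT libraries. CPM are counts scaled to a common library total with TMM, a normalisation that sets aside the most extreme genes. All 6 knockdown libraries lay below all 3 shNT libraries, and the shRad21_2 libraries lay below the shRad21_1 libraries. Rad21 fell by 2.49 (SE 0.09, edgeR adjusted p = 2.83e-07) on the log2 scale under shRad21_2 and by 1.41 (SE 0.09, adjusted p = 1.66e-04) under shRad21_1. The gene lies on chromosome 15 from 51962240 to 51991747 of mm10.

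Library totals ran from 34780003 to 46644607 counts, and 13560 genes were tested. Of the neural stem cell markers, 10 of 10 were tested, with summed levels of 7421 to 8406 CPM in shRad21_2, 7275 to 8452 CPM in shRad21_1 and 8705 to 9094 CPM in shNT. The sum hides members that went both ways under shRad21_2 against shNT. At an edgeR adjusted p under 0.05, Nes (log2 fold 1.03) and Pax6 (0.50) rose. Ednrb (-1.53), Slc1a3 (-0.95), Fabp7 (-0.50) and Msi1 (-0.39) fell, and Sox2, Vim, Hes1 and Hes5 did not pass. Under shRad21_1 Ednrb alone passed, at -0.32. The 8 astrocyte markers summed to between 229.8 and 251 CPM in shRad21_2, 372 and 598 CPM in shRad21_1 and 694 and 730.3 CPM in shNT. Under shRad21_2 against shNT, Gfap (log2 fold -7.69), Aqp4 (-5.04), Atp1b2 (-3.43), Aldh1l1 (-2.79) and S100b (-2.55) fell. Slc1a2 (-0.68) and Gja1 (0.52) did not pass. Gja1, most of the shRad21_2 sum, had 169, 143 and 154 CPM there and 134, 98.2 and 92.9 CPM in shNT. Slc4a4 had 29.7, 41.9 and 29.0 CPM in shRad21_2 and 195, 203 and 191 CPM in shNT. The part of this list in the results below was not tested. The 8 neuron markers, 7 of them tested, summed to between 951 and 1082 CPM in shRad21_2, 905 and 1040.0 CPM in shRad21_1 and 772 and 916 CPM in shNT. Most of that sum was Map2, which averaged 989 ± 67.8 CPM in shRad21_2, 885 ± 33.8 CPM in shRad21_1 and 793 ± 78.8 CPM in shNT (SD, n = 3 each), while Dcx and Rbfox3 stood at 5.06 CPM or less in every library and Stmn2 was at 0 in at least 1 library of each group. The 8 oligodendrocyte lineage markers, 6 of them tested, summed to between 2694 and 3086 CPM in shRad21_2, 3089 and 3226 CPM in shRad21_1 and 2750.2 and 2883 CPM in shNT, mostly Olig1 and Olig2. Pdgfra, the receptor of oligodendrocyte progenitors, averaged 5.20 ± 0.969 CPM in shRad21_2, 31.2 ± 10.7 CPM in shRad21_1 and 62.3 ± 2.54 CPM in shNT, and Sox10 and Mog were both at 0 in all shRad21_2 libraries. The part of these lists in the results below was not tested either. Microglia, endothelium and mesenchyme markers summed to at most 4.81 CPM in any library. Replicates 2 and 3 of shNT, and replicates 2 and 3 of shRad21_1, were much closer to each other than any other pair: the chi-square per gene between them was 3.18 and 2.18, against 23.0 to 69.6 for the other pairs within a group. They still differed by more than counting noise and were kept as separate libraries, and fits with each such pair summed stand beside the counts they change.

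With shRad21_2 against shNT, 18 of the 47 genes rose, among them the kinases Aurkb, Bub1 and Bub1b, the condensin subunit Smc4 and the separase gene Espl1, and 1, Hdac8, fell. A gene was counted as changed at an edgeR adjusted p under 0.05 over all 13560 genes with no minimum fold. Over all genes, 43.6% were called in that comparison, 21.1% higher and 22.5% lower, so the 40.4% of the 47 genes that were called is near the background. The directions were uneven: 38.3% of the 47 rose, and the fold change was positive for 45 of 47, with a median of 0.32 (log2) against 0.01 over all genes tested. The single folds were small, from -0.47 to 0.68. The other 28 genes did not pass the test.

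With shRad21_1 against shNT, 1 of the 47 genes rose, Esco1, and 0 fell, where 9.82% of all genes were called, 4.19% higher and 5.63% lower. At an unadjusted p under 0.05, 1 was higher and 4 were lower, where 1707 and 1888 of the 13560 genes were. The median of the 47 was -0.04, with 18 of 47 positive. It changed sign with single libraries, at 0.07 with 37 of 47 positive without shNT replicate 1 and at -0.14 with 6 of 47 positive without shRad21_1 replicate 1. The DESeq2 Wald test called the same gene higher and 2 genes lower, Ccnb2 and Hdac8. A fit with the replicate number as a block also called both lower, Ccnb2 at -0.76 (SE 0.12, adjusted p = 0.00988) and Hdac8 at -0.39 (SE 0.10, adjusted p = 0.0444). Of all genes, the Wald test called 6.71% higher and 8.35% lower, and the block fit 4.54% and 6.05%.

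With shRad21_2 against shRad21_1, 17 genes rose and 0 fell, where 26.3% of all genes were called, 11.9% higher and 14.4% lower. At an unadjusted p under 0.05, 30 were higher and 0 were lower in this comparison, where 2565 and 2794 of the 13560 genes were. The DESeq2 Wald test called 23 higher and 0 lower, where it called 14.3% and 16.2% of all genes. The median of the 47 was 0.38 against -0.00 over all genes, with 45 of 47 positive. The comparisons share libraries, shNT in the first pair and shRad21_2 in the second, so their counts are not independent of each other. With library totals in place of TMM the median of all genes moved to -0.06 in both comparisons that hold shRad21_2, and 11 and 12 of the 47 rose. The share of all genes called higher and lower was then 16.0% and 26.1% for shRad21_2 against shNT, and 8.08% and 17.0% for shRad21_2 against shRad21_1.

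**Figure D1:**
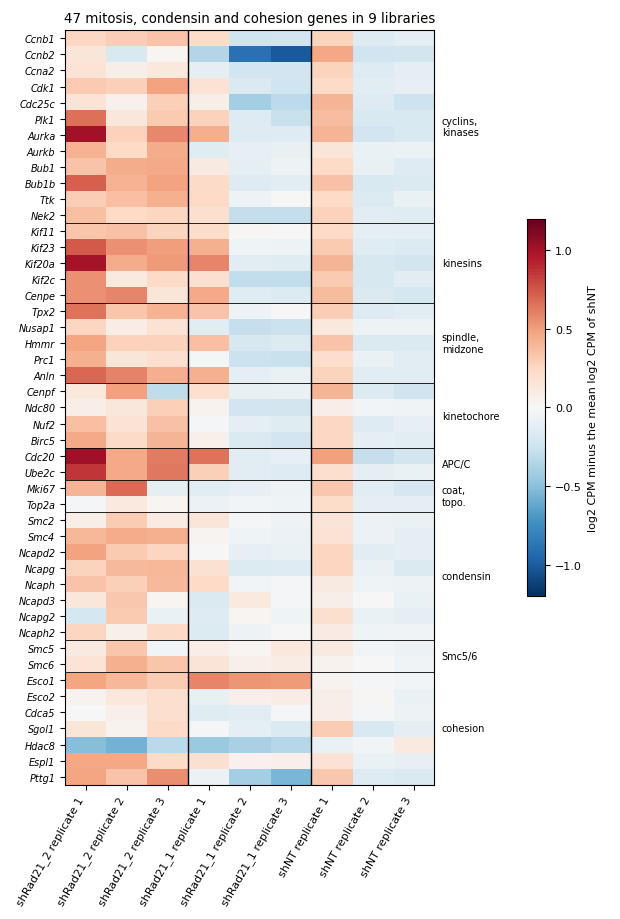
Level of each of the 47 genes (down the page, by role) in each of the 9 libraries (across), as log2 CPM minus the mean log2 CPM of the 3 shNT libraries. The shRad21_2 columns are red for most genes, the shRad21_1 columns are near white or blue for most genes except in replicate 1 (Esco1 is red in all 3), and the first shNT library is redder than the other 2 in 46 of 47 genes.

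In shNT and shRad21_1 the first replicate stood above the other 2 of its group for most of these genes, and the counts moved with it. In shNT, replicate 1 was above both other libraries in 46 of 47 genes (97.9%, against 42.0% of all genes tested), by a median of 0.37 (log2). In shRad21_1 the same held for 37 of 47 genes (78.7%, against 44.3%), by a median of 0.26, and in shRad21_2 for 21 of 47 (44.7%, against 37.8%), by 0.08. The difference between replicate 1 and the mean of the other 2 was largest, averaged over the groups, for Cdc20, at 0.48 in shRad21_2, 0.76 in shRad21_1 and 0.74 in shNT, and next largest for Kif20a and Aurka, a kinesin of the midzone and a spindle pole kinase. Condensin and cohesion genes differed less, with medians of -0.04, 0.09 and 0.25 for condensin and 0.01, 0.07 and 0.12 for the cohesion genes in shRad21_2, shRad21_1 and shNT. Hdac8 was the 1 gene of 47 that was lower in replicate 1 of all 3 groups.

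Other genes set the first replicates apart as well. In shRad21_1, 14 of 14 S phase genes were lower in replicate 1 than the mean of the other 2, by a median of -0.29, and the 4 genes of the p53 arm (Trp53, Cdkn1a, Mdm2 and Ccng1) were higher by a median of 0.54. In shNT the S phase genes were higher in replicate 1 in 13 of 14 cases, by a median of 0.16, and the p53 arm differed by -0.06. The labels give no batch or date for these libraries, and the part of any batch in these differences was not tested.

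**Figure D2:**
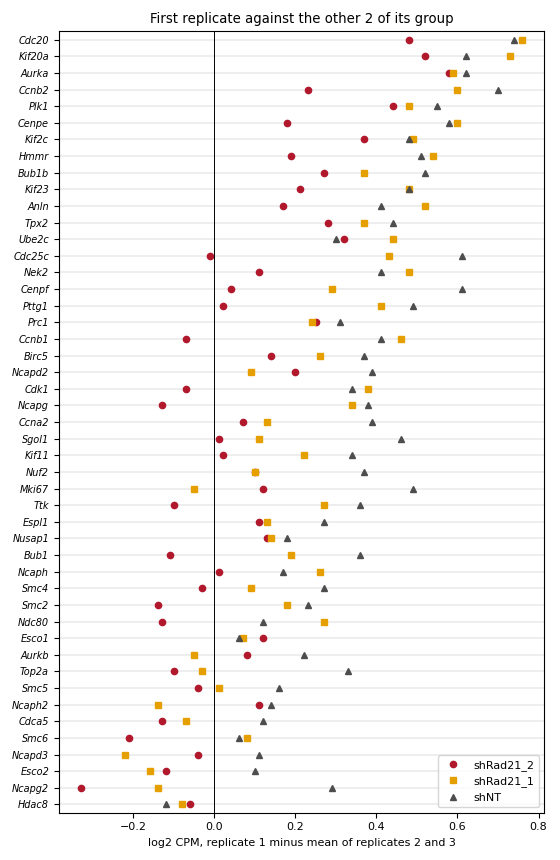
Log2 CPM of replicate 1 minus the mean of replicates 2 and 3 in each group (points; across) for the 47 genes (down the page, sorted by the mean over groups). Cdc20, Kif20a and Aurka have the highest means over the groups, and Hdac8 lies left of 0 in all 3. The medians are 0.08 in shRad21_2, 0.26 in shRad21_1 and 0.37 in shNT.

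The number of genes called with shRad21_2 against shNT moved with single libraries. It was 31 higher without shNT replicate 1, where 18.4% of all genes rose and the median was 0.43, and all 19 calls were kept. It was 6 higher without shNT replicate 2 (median 0.27) or shNT replicate 3 (median 0.25), where 14.1% and 14.2% of all genes rose. It was 9 without shRad21_2 replicate 1 and 13 without shRad21_2 replicate 3, where 19.4% and 18.5% of all genes rose. With the close pairs summed 3 rose (Esco1, Smc4 and Ube2c) and 0 fell, where 11.6% of all genes rose. As shares of the 47, the 6, the 9 and the 3 are no higher than those of all genes. The medians stayed positive, at 0.30 without shRad21_2 replicate 1 and 0.26 with the close pairs summed. Without the first replicate of shNT and of shRad21_1 together 37 rose, where 23.0% of all genes did. Without the first replicate of every group, a fit added after the data were seen, 38 rose and 1 fell, with a median of 0.41. In that fit 26.1% of all genes rose. Called without each of the 9 libraries in turn were 7 of the 19: Aurkb, Ube2c, Smc4, Smc6, Espl1 and Esco1 higher and Hdac8 lower. With library totals in place of TMM 7 of the 19 calls were lost, those of Birc5, Cdk1, Kif11, Ncapd2, Pttg1, Tpx2 and Ttk.

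Between the hairpins the count moved in the same way. It was 33 higher without shRad21_1 replicate 1, with 16 of the 17 calls kept, and 5 higher without shRad21_1 replicate 2 or 3, namely Aurkb, Nusap1, Pttg1, Smc4 and Ube2c. It was 8 without shRad21_2 replicate 1, 10 without shRad21_2 replicate 3, and 3 with the close pairs summed (Aurkb, Pttg1 and Smc4). Of all genes, 14.8%, 5.46% and 5.57% rose without shRad21_1 replicates 1, 2 and 3. The shares were 10.3% and 8.33% without shRad21_2 replicates 1 and 3, and 2.56% with the close pairs summed.

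The upstream sequence of these genes was read because many of them move together between the libraries. Promoters of G2 and M phase genes often carry a cell cycle homology region, a short element bound by the MuvB complex with B-Myb or its repressive partners, together with CCAAT boxes bound by NF-Y. The window was the 300 bases from 250 before to 50 after each annotated start in RefSeq (GRCm38.p6), matched by symbol for 39 of the 47 genes, with Sgol1 under its newer symbol Sgo1. The cell cycle element was searched as TTTGAA or TTCGAA and the NF-Y site as CCAAT, each on both strands. A palindromic match was counted once, a CCAAT box may share its last base with the cell cycle element, and boxes on opposite strands may overlap each other. The windows below are those of Cdc20, with the largest mean difference between first and other replicates, Ube2c, with the largest called fold under shRad21_2, Ccnb2, with the lowest fold under shRad21_1, the separase gene Espl1, and Hdac8, which fell. Capitals mark both motifs on either strand, and each run is written along the transcribed strand.
Cdc20, chr4:118437294-118437593, minus strand: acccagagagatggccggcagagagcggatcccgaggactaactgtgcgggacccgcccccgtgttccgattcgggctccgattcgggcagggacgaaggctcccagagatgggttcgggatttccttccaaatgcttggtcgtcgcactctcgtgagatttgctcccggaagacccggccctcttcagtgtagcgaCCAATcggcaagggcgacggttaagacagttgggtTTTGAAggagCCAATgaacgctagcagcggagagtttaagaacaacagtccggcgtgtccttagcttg
Ube2c, chr2:164769679-164769978, plus strand: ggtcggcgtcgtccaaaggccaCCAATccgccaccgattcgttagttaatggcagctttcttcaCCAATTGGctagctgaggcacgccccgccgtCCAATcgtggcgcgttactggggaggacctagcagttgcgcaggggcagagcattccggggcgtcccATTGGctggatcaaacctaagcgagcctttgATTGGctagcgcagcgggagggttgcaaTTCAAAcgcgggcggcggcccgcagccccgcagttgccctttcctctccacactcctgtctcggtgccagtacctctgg
Ccnb2, chr9:70421505-70421804, minus strand: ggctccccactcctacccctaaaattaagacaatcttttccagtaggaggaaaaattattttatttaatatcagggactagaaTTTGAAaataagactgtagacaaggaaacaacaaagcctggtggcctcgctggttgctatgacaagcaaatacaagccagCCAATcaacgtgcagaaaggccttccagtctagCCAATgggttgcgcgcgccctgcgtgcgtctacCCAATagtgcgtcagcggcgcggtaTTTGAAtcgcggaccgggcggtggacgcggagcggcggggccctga
Espl1, chr15:102296043-102296342, plus strand: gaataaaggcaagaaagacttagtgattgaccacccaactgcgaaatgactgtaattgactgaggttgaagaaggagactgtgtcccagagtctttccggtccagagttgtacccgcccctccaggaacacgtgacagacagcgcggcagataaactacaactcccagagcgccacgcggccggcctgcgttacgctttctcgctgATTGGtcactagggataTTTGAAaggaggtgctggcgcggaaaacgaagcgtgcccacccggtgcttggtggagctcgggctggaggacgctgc
Hdac8, chrX:102505109-102505408, minus strand: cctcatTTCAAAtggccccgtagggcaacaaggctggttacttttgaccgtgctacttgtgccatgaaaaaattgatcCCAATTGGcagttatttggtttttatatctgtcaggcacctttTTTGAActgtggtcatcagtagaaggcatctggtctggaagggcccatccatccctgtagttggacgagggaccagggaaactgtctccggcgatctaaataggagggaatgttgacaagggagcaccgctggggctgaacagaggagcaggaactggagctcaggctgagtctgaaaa

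TTTGAA or TTCGAA stood in the window of 30 of 39 genes (76.9%), against 15.6% of 10263 genes tested that have a window and 21.7% of all 27025 genes in the RefSeq set. CCAAT stood in 25 of 39 (64.1%), against 43.1% and 41.1%, and both motifs stood together in 22 of 39 (56.4%), against 6.7% and 8.61%. In the Cdc20, Ube2c and Espl1 windows the first base of the cell cycle element lay at -18, -29 and -27 from the start, counted with no 0. The matches are a description of these letters and no evidence of binding. Both motifs stood in the windows of 7 of 9 matched cyclin, kinase and phosphatase genes and in 3 of 7 matched condensin genes. All 9 of these cyclin, kinase and phosphatase genes held CCAAT, and 6 of the 7 condensin genes held TTTGAA or TTCGAA. The Hdac8 window held both motifs too, so their presence alone does not set this gene apart from Ube2c and Espl1, which rose. Its cell cycle elements lay farther upstream of the start than those of Cdc20, Ube2c and Espl1. Ncapd2, which rose, also had its element well upstream, at -123. Birc5, Ncaph and Pttg1, which rose, held neither motif. The part of motif position in the direction of change was not tested.

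Among the 12 cyclins, kinases and the phosphatase Cdc25c, 5 rose under shRad21_2 against shNT, all of them kinases, and 0 fell, with a median fold of 0.35 (log2). The kinases alone numbered 8, of which 5 rose (62.5%, where 21.1% of all genes did), with a median of 0.37. Without shNT replicate 2 or 3 Aurkb was the only kinase called, where 14.1% and 14.2% of all genes rose. With the close pairs summed no kinase was called, where 11.6% of all genes rose. Under shRad21_1 0 of the 12 passed the test, with a median of -0.08 and 1 lower at an unadjusted p under 0.05.

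Aurkb, the kinase of the chromosomal passenger complex, had 125, 110.2 and 127 CPM in shRad21_2, 84.3, 86.8 and 87.4 CPM in shRad21_1 and 103, 88.2 and 88.7 CPM in shNT. Every shRad21_2 library lay above every shNT library, and every shRad21_1 library lay below them. Aurkb rose by 0.37 (SE 0.08, edgeR adjusted p = 0.00610) under shRad21_2 against shNT and by 0.48 (SE 0.09, adjusted p = 0.00343) under shRad21_2 against shRad21_1, and it was called without each of the 9 libraries in turn in both comparisons. With the close pairs summed the call against shNT was lost (edgeR adjusted p = 0.0614).

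Bub1, a spindle checkpoint kinase that marks the centromere through histone H2A, had 107, 114 and 115 CPM in shRad21_2, 90.4, 77.5 and 80.8 CPM in shRad21_1 and 99.4, 78.9 and 75.6 CPM in shNT. The shRad21_2 libraries lay above all others, and replicate 1 was the highest of both other groups. It rose by 0.41 (SE 0.11, edgeR adjusted p = 0.0128) under shRad21_2 against shNT, a call that was lost without shNT replicate 2 (0.36) or shNT replicate 3 (0.33). Bub1b, the checkpoint protein BubR1 that restrains Cdc20, had 216, 175 and 184 CPM in shRad21_2, 153, 118 and 119.7 CPM in shRad21_1 and 167, 116 and 117 CPM in shNT. Here too the shRad21_2 libraries were the highest, with replicate 1 on top in each group. The fold was 0.53 (SE 0.16, adjusted p = 0.0232), and the call was lost without shNT replicate 2 (0.43), shNT replicate 3 (0.44) or shRad21_2 replicate 1 (0.43).

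Cdk1, the kinase that drives entry into mitosis, averaged 234 ± 17.3 CPM in shRad21_2, 173 ± 27.3 CPM in shRad21_1 and 183 ± 26.0 CPM in shNT (SD, n = 3 each). It rose by 0.36 (SE 0.13, edgeR adjusted p = 0.0473) under shRad21_2 against shNT. That call was lost without shNT replicate 2 (0.29) or 3 (0.30), without shRad21_1 replicate 2 (0.36), or without shRad21_2 replicate 1 (0.38), 2 (0.39) or 3 (0.29). Ttk, the checkpoint kinase Mps1, averaged 59.8 ± 2.67 CPM in shRad21_2, 48.5 ± 5.43 CPM in shRad21_1 and 46.8 ± 7.11 CPM in shNT. It rose by 0.35 (SE 0.12, adjusted p = 0.0346), and lost the call when shNT replicate 2 (0.28) or 3 (0.31) or shRad21_2 replicate 2 (0.36) or 3 (0.32) was left out.

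Plk1, Aurka and Nek2, kinases of the centrosome and of mitotic entry, did not pass. Aurka averaged 106 ± 27.5 CPM in shRad21_2, 71.0 ± 17.8 CPM in shRad21_1 and 69.1 ± 18.1 CPM in shNT, and its groups overlapped. Its fold of 0.62 (SE 0.24, edgeR adjusted p = 0.0542) was larger than that of any called kinase, but so was its spread. It was called without shNT replicate 1 (0.86), shRad21_1 replicate 1 (0.63) or shRad21_2 replicate 2 (0.78). Plk1 averaged 213 ± 40.6 CPM in shRad21_2, 159.9 ± 32.6 CPM in shRad21_1 and 166 ± 38.7 CPM in shNT, with a fold of 0.36 (adjusted p = 0.157) that was called without shNT replicate 1 (0.57). Nek2 averaged 68.6 ± 3.16 CPM in shRad21_2, 52.3 ± 10.6 CPM in shRad21_1 and 56.9 ± 9.84 CPM in shNT.

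Of the 3 cyclins, 1 passed the test, and in 1 comparison. Between the hairpins their folds were all positive, and all 3 were called without shRad21_1 replicate 1 and with the replicate block. Of all genes, 14.8% and 12.3% rose in those fits. Ccnb1, the main mitotic cyclin, averaged 239 ± 7.71 CPM in shRad21_2, 186 ± 35.5 CPM in shRad21_1 and 197 ± 33.5 CPM in shNT, and did not pass in any of the comparisons. Its fold under shRad21_2 against shNT, 0.28 (edgeR adjusted p = 0.138), was called without shNT replicate 1 (0.43) or shRad21_1 replicate 1 (0.28), and its fold against shRad21_1 without shRad21_1 replicate 1 (0.53). Ccna2, the cyclin of S phase and G2, averaged 301 ± 9.56 CPM in shRad21_2, 242 ± 12.6 CPM in shRad21_1 and 279 ± 45.8 CPM in shNT and did not pass either, though its fold of 0.31 against shRad21_1 was called without shNT replicate 1 (0.31) or shRad21_1 replicate 1 (0.36).

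Ccnb2, a cyclin B found at the Golgi and centrosome, had 50.6, 40.2 and 46.4 CPM in shRad21_2, 35.8, 24.5 and 22.6 CPM in shRad21_1 and 63.1, 38.7 and 39.1 CPM in shNT. All 3 shRad21_1 libraries lay below all libraries of the other groups. Its fold under shRad21_1 against shNT was -0.76 (SE 0.22, edgeR adjusted p = 0.0559), and it was called without shRad21_1 replicate 1 (-0.99). Ccnb2 rose by 0.73 (SE 0.22, adjusted p = 0.0360) under shRad21_2 against shRad21_1, a call lost without shRad21_1 replicate 2 (0.65) or 3 (0.60) or shRad21_2 replicate 1 (0.65) or 3 (0.72). Cdc25c, the phosphatase that activates Cdk1, averaged 31.6 ± 2.55 CPM in shRad21_2, 24.4 ± 4.47 CPM in shRad21_1 and 28.7 ± 7.51 CPM in shNT and did not pass.

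Between the hairpins 5 of the 12 rose, where 11.9% of all genes did, and 0 fell: Aurkb and Ccnb2, given above, and Bub1 by 0.44 (SE 0.11, edgeR adjusted p = 0.0163), Bub1b by 0.56 (SE 0.16, adjusted p = 0.0297) and Cdk1 by 0.43 (SE 0.13, adjusted p = 0.0337). Bub1 lost this call without shRad21_1 replicate 2 (0.39) or 3 (0.42). Bub1b lost it without shRad21_1 replicate 2 (0.49) or 3 (0.50) or shRad21_2 replicate 1 (0.46) or 3 (0.59), and Cdk1 without the same libraries (0.39, 0.36, 0.46 and 0.37). Without shRad21_1 replicate 1 the kinases Plk1 (0.59), Aurka (0.81), Ttk (0.40) and Nek2 (0.57) and the phosphatase Cdc25c (0.53) were called too.

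**Figure D3:**
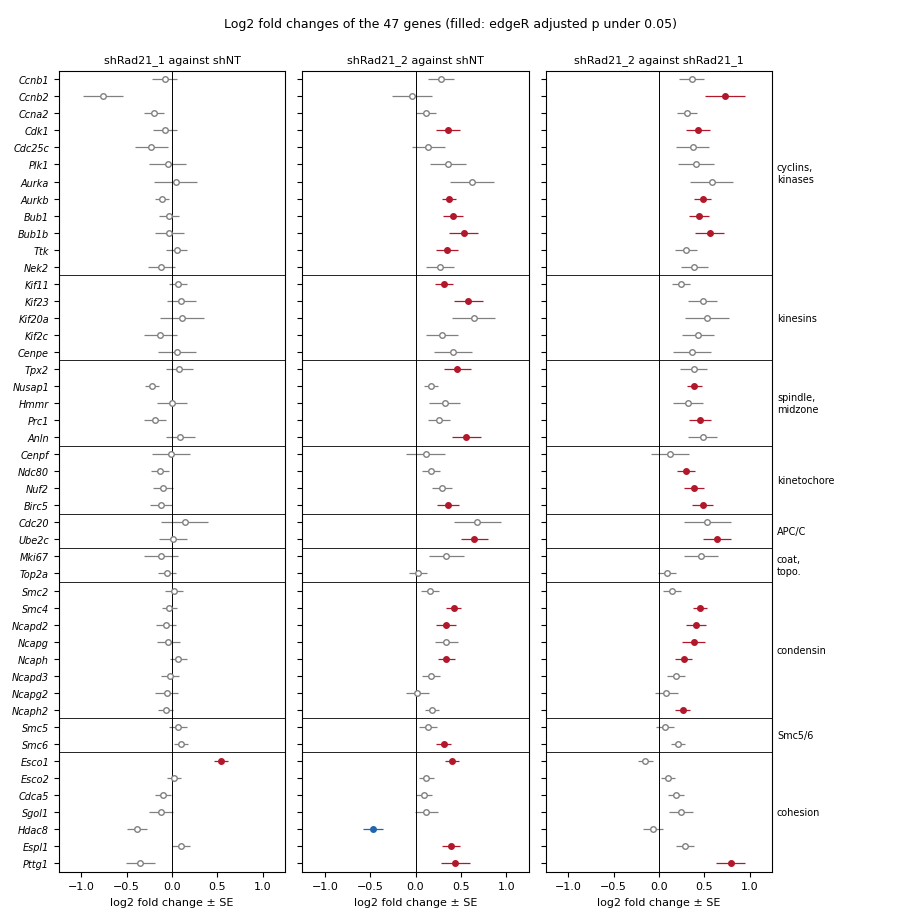
Log2 fold change (across, with the SE of the edgeR fit as bars) of each of the 47 genes (down the page, by role) in each comparison (panels); filled points have an edgeR adjusted p under 0.05, red higher and blue lower. Most points of the middle and right panels lie right of 0, where 18 and 17 genes rose, while in the left panel 1 gene, Esco1, is filled.

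Of the 5 kinesins, motor proteins that move along or take apart microtubules, 2 rose under shRad21_2 against shNT and 0 fell. That is 40.0%, where 21.1% of all genes rose and 43.6% were called in either direction. The folds of all 5 lay between 0.29 and 0.64 with a median of 0.41. Under shRad21_1 0 passed, with a median of 0.07. Between the hairpins 0 passed, with 3 higher at an unadjusted p under 0.05, where 2565 of the 13560 genes were. In that comparison all 5 were called without shRad21_1 replicate 1, among them Kif11 (0.31), Kif23 (0.66), Kif20a (0.82) and Kif2c (0.61), and 4 were called with the replicate block. Of all genes, 14.8% and 12.3% rose in those fits. Under shRad21_2 against shNT 4 were called without shNT replicate 1, and 0 without shNT replicate 3 or shRad21_2 replicate 1. Kif23, the kinesin of the centralspindlin complex in the midzone, had 106, 93.3 and 90.6 CPM in shRad21_2, 85.6, 61.7 and 61.3 CPM in shRad21_1 and 79.7, 57.6 and 56.9 CPM in shNT. Every shRad21_2 library was above every other. It rose by 0.58 (SE 0.16, edgeR adjusted p = 0.0160), a call lost without shNT replicate 2 (0.50), shNT replicate 3 (0.50) or shRad21_2 replicate 1 (0.51).

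Kif11, the motor that pushes spindle poles apart, had 220.0, 223 and 211 CPM in shRad21_2, 204, 177 and 175 CPM in shRad21_1 and 205, 162 and 162 CPM in shNT. The shRad21_2 libraries were again the highest, by a small margin over the first replicates. It rose by 0.31 (SE 0.10, edgeR adjusted p = 0.0362), and it was not called when shNT replicate 2 (0.25) or 3 (0.25) or shRad21_2 replicate 1 (0.30), 2 (0.29) or 3 (0.33) was left out. Kif20a, a cytokinesis motor on chromosome 18, had 234, 159.9 and 167 CPM in shRad21_2, 176, 107 and 106 CPM in shRad21_1 and 156, 103 and 101 CPM in shNT. Each shRad21_2 library exceeded each shNT library, although replicate 1 of shNT came within a few CPM of replicate 2 of shRad21_2. The fold of 0.64 (SE 0.24, adjusted p = 0.0537) did not pass; it was called without shNT replicate 1 (0.88) or shRad21_1 replicate 1 (0.64).

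Kif2c, which depolymerises microtubules at the kinetochore, averaged 117 ± 18.6 CPM in shRad21_2, 87.3 ± 18.0 CPM in shRad21_1 and 95.7 ± 19.2 CPM in shNT. Cenpe, the kinetochore motor that carries chromosomes to the spindle equator, averaged 175 ± 28.2 CPM in shRad21_2, 136 ± 35.0 CPM in shRad21_1 and 132 ± 32.2 CPM in shNT. Neither passed in the fit of all 9 libraries. Cenpe was called under shRad21_2 against shNT without shNT replicate 1 (0.63). Within each group replicate 1 was the highest Kif2c library.

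Of the 5 spindle, midzone and furrow proteins, 2 rose under shRad21_2 against shNT and 0 fell, with a median of 0.32. That is 40.0%, where 21.1% of all genes rose and 43.6% were called in either direction. Under shRad21_1 0 passed. Anln, the anillin scaffold of the cleavage furrow, had 195, 183 and 164 CPM in shRad21_2, 163, 113 and 115 CPM in shRad21_1 and 146, 111 and 110.0 CPM in shNT. Its shRad21_2 libraries lay above all others, the lowest by about 1 CPM over the first shRad21_1 library. It rose by 0.56 (SE 0.16, edgeR adjusted p = 0.0162), a call lost without shNT replicate 2 (0.50), shNT replicate 3 (0.49) or shRad21_2 replicate 1 (0.51).

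Tpx2, which targets Aurka to the spindle, had 415, 333 and 353 CPM in shRad21_2, 333, 252 and 262 CPM in shRad21_1 and 323, 236 and 240.1 CPM in shNT. The shRad21_2 libraries lay above the shNT libraries and overlapped the first shRad21_1 library. It rose by 0.46 (SE 0.15, edgeR adjusted p = 0.0297), and lost the call without shNT replicate 2 (0.38) or 3 (0.39) or shRad21_2 replicate 1 (0.37) or 3 (0.49). Prc1, which bundles midzone microtubules, had 273, 225 and 234 CPM in shRad21_2, 199, 169 and 168 CPM in shRad21_1 and 234, 191 and 186 CPM in shNT. Its shRad21_2 and shNT libraries overlapped, and the fold of 0.26 (adjusted p = 0.0944) did not pass. It was called without shNT replicate 1 (0.37), with first replicates left out together, and with the replicate block (0.26, adjusted p = 0.0122). Against shRad21_1 Prc1 rose by 0.45 (adjusted p = 0.0192), a call lost without shRad21_1 replicate 2 (0.41) or 3 (0.41) or shRad21_2 replicate 1 (0.36).

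Nusap1, a microtubule binder that also coats chromosomes, averaged 152 ± 9.10 CPM in shRad21_2, 116 ± 6.80 CPM in shRad21_1 and 135 ± 10.1 CPM in shNT. It rose between the hairpins by 0.39 (SE 0.08, edgeR adjusted p = 0.00755), also without each of the 9 libraries in turn. That call was lost with the close pairs summed, and Nusap1 did not pass against shNT under either hairpin. Hmmr, a spindle pole adaptor, averaged 145 ± 11.5 CPM in shRad21_2, 116 ± 26.3 CPM in shRad21_1 and 116 ± 25.1 CPM in shNT and did not pass, though it was called under shRad21_2 against shNT without shNT replicate 1 (0.52). Between the hairpins 2 of these 5 genes rose, where 11.9% of all genes did. All 5 were called without shRad21_1 replicate 1, with Anln at 0.67, Hmmr at 0.53 and Tpx2 at 0.51, where 14.8% of all genes rose.

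Of the 4 kinetochore and passenger genes, 1 rose under shRad21_2 against shNT (25.0%), near the 21.1% of all genes. Between the hairpins 3 rose (75.0%, where 11.9% of all genes did). The medians were 0.23 and 0.34. Birc5, the survivin subunit that brings Aurkb to the centromere, had 110.3, 94.1 and 107 CPM in shRad21_2, 83.7, 71.2 and 68.6 CPM in shRad21_1 and 95.4, 74.7 and 73.0 CPM in shNT. Its second shRad21_2 library was below the first shNT library, so these groups overlapped. It rose by 0.36 (SE 0.12, edgeR adjusted p = 0.0363), but not when shNT replicate 2 (0.30) or 3 (0.29) or shRad21_2 replicate 1 (0.31) or 3 (0.34) was left out.

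Ndc80 and Nuf2 form the rod that grips microtubules at the kinetochore. Nuf2 had 119.8, 105 and 119 CPM in shRad21_2, 92.0, 87.0 and 84.3 CPM in shRad21_1 and 111, 84.1 and 87.5 CPM in shNT. Ndc80 had 67.0, 69.3 and 77.0 CPM in shRad21_2, 65.3, 53.9 and 54.2 CPM in shRad21_1 and 66.8, 61.8 and 61.2 CPM in shNT. For both genes the shRad21_2 libraries were above the shRad21_1 libraries, and for Ndc80 they were above shNT as well, by under 1 CPM at the closest. Neither passed against shNT, Nuf2 with a fold of 0.29 (edgeR adjusted p = 0.0542) that was called without shNT replicate 1 (0.42), shRad21_1 replicate 1 (0.29) or shRad21_2 replicate 2 (0.35).

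Between the hairpins Nuf2 rose by 0.39 (SE 0.11, edgeR adjusted p = 0.0262) and Birc5 by 0.48 (SE 0.12, adjusted p = 0.0177). Nuf2 lost that call without shRad21_1 replicate 2 (0.38) or 3 (0.36) or shRad21_2 replicate 1 (0.36) or 3 (0.36), and Birc5 without the same libraries (0.45, 0.42, 0.43 and 0.46). Ndc80 rose by 0.30 (SE 0.10, adjusted p = 0.0435), a call that was kept without 2 of the 9 libraries, shRad21_1 replicate 1 and shRad21_2 replicate 1, with folds of 0.24 to 0.32 without the other 7. Cenpf, a large kinetochore protein of G2, had 167, 215 and 123 CPM in shRad21_2, averaged 154 ± 18.2 CPM in shRad21_1 and 156 ± 40.2 CPM in shNT, and did not pass.

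Cdc20, the activator of the anaphase-promoting complex, and Ube2c, its ubiquitin-conjugating enzyme, had the largest folds of the 47 genes under shRad21_2 against shNT. Ube2c had 255, 192 and 217 CPM in shRad21_2, 172, 128 and 126 CPM in shRad21_1 and 161, 129 and 133 CPM in shNT. The shRad21_2 libraries lay above all 6 others. It rose by 0.65 (SE 0.15, edgeR adjusted p = 0.00579) against shNT and by 0.64 (SE 0.15, adjusted p = 0.0114) against shRad21_1, both without each of the 9 libraries in turn. With the close pairs summed the call against shRad21_1 was lost (edgeR adjusted p = 0.0753).

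Cdc20 had 337, 227 and 257 CPM in shRad21_2, 261, 153 and 155 CPM in shRad21_1 and 234, 138 and 143 CPM in shNT. The groups overlapped, since the first replicate of shRad21_1 and of shNT reached the second of shRad21_2. The fold of 0.68 (SE 0.26, edgeR adjusted p = 0.0579) did not pass, and was called without shNT replicate 1 (0.96) or shRad21_1 replicate 1 (0.68). Between the hairpins it was called without shRad21_1 replicate 1 (0.83). Without the first replicates, the remaining libraries of shRad21_2 lay above the remaining libraries of both other groups.

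Mki67, the coat protein that keeps mitotic chromosomes apart and is widely used to mark proliferation, did not pass. It had 713, 861 and 499.6 CPM in shRad21_2, 492, 502 and 515 CPM in shRad21_1 and 675, 494 and 468 CPM in shNT. The spread in shRad21_2 was the widest of the 47 genes on the CPM scale, with replicate 3 at the level of shRad21_1. The fold of 0.34 (SE 0.19, edgeR adjusted p = 0.165) was called without shRad21_2 replicate 3 (0.53), and so was the fold between the hairpins (0.65). Top2a, the topoisomerase that untangles sister chromatids, had 691, 762 and 716 CPM in shRad21_2, 669.6, 687 and 681 CPM in shRad21_1 and 821, 648 and 654 CPM in shNT. The shRad21_2 and shNT libraries overlapped, the first shNT library was the highest of the 9, and Top2a did not pass in any comparison.

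**Figure D4:**
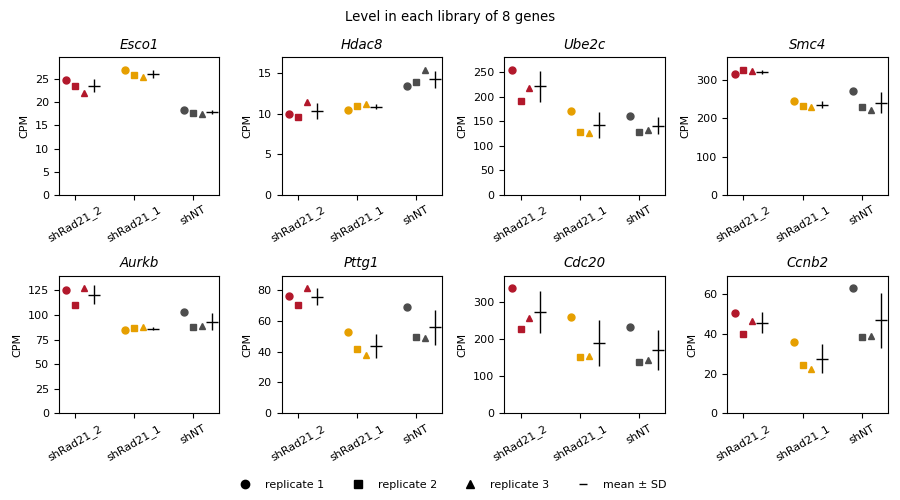
CPM (up the page, from 0) of 8 genes in each library of the 3 groups (across); marker shapes give the replicate number, and the bar beside them the mean ± SD of 3 libraries. Smc4 and Aurkb are highest in all 3 shRad21_2 libraries, Esco1 is lowest and Hdac8 highest in shNT, and replicate 1 lies on top in all 3 groups for Cdc20 and Ccnb2.

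Of the 8 condensin genes, 3 rose under shRad21_2 against shNT, 0 fell and 5 did not pass, with a median of 0.26. The 37.5% that rose lies above the 21.1% of all genes that rose and below the 43.6% called in either direction. Under shRad21_1 0 passed, with folds between -0.07 and 0.07. Between the hairpins 5 of 8 rose, where 11.9% of all genes did. The ring pair of Smc2 and Smc4 is shared by both complexes. Smc4 had 317, 327 and 323 CPM in shRad21_2, 246, 233 and 229 CPM in shRad21_1 and 272, 229.6 and 223 CPM in shNT. The shRad21_2 libraries lay together above all others. Smc4 rose by 0.42 (SE 0.08, edgeR adjusted p = 0.00307) against shNT and by 0.45 (SE 0.08, adjusted p = 0.00444) against shRad21_1, in both cases also without each of the 9 libraries and with the close pairs summed. Its partner Smc2 had 217, 256 and 223 CPM in shRad21_2, 229, 205 and 199 CPM in shRad21_1 and 230.4, 198 and 196 CPM in shNT and did not pass.

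Of the 3 subunits particular to condensin I, 2 rose under shRad21_2 against shNT, and all 3 had a fold of 0.34. Ncaph, its kleisin, had 179, 172 and 185 CPM in shRad21_2, 166, 138 and 139 CPM in shRad21_1 and 152, 136 and 135 CPM in shNT. The shRad21_2 libraries lay above all others. Ncaph rose by 0.34 (SE 0.09, edgeR adjusted p = 0.0117), a call lost without shNT replicate 2 (0.31) or 3 (0.31). Ncapd2, a HEAT repeat subunit, had 460.1, 409 and 394 CPM in shRad21_2, 329, 307 and 312 CPM in shRad21_1 and 395, 299.7 and 303 CPM in shNT. Its shRad21_2 replicate 3 was just below the first shNT library. Ncapd2 rose by 0.34 (SE 0.11, adjusted p = 0.0318), a call lost without shNT replicate 2 (0.27) or 3 (0.28) or shRad21_2 replicate 1 (0.27). Ncapg, the other HEAT repeat subunit, averaged 103 ± 5.15 CPM in shRad21_2, 78.8 ± 11.1 CPM in shRad21_1 and 81.3 ± 13.1 CPM in shNT, with an adjusted p of 0.0531 against shNT that passed without shNT replicate 1 (0.48) or shRad21_1 replicate 1 (0.34).

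Of the 3 subunits particular to condensin II, 0 rose under shRad21_2 against shNT, with folds of 0.02 to 0.18, and 1 was higher at an unadjusted p under 0.05. Ncaph2, its kleisin, averaged 198 ± 14.1 CPM in shRad21_2, 165 ± 9.75 CPM in shRad21_1 and 174 ± 10.2 CPM in shNT. It was called against shNT without shRad21_2 replicate 2 (0.24) and rose against shRad21_1 by 0.26 (SE 0.08, edgeR adjusted p = 0.0420), a call kept without 2 of the 9 libraries, shNT replicate 1 and shRad21_2 replicate 2, with folds of 0.21 to 0.30 without the other 7. Ncapd3 averaged 84.4 ± 9.07 CPM in shRad21_2, 74.1 ± 7.43 CPM in shRad21_1 and 75.2 ± 3.88 CPM in shNT, and Ncapg2 108 ± 21.1 CPM in shRad21_2, 102 ± 6.26 CPM in shRad21_1 and 107 ± 12.7 CPM in shNT. The difference between the condensin I and condensin II subunits was not tested.

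Between the hairpins all 3 condensin I subunits rose, Ncapd2 by 0.41 (SE 0.11, edgeR adjusted p = 0.0229), Ncapg by 0.38 (SE 0.13, adjusted p = 0.0498) and Ncaph by 0.27 (SE 0.09, adjusted p = 0.0462). Ncapd2 lost its call without shRad21_1 replicate 2 (0.39) or 3 (0.40) or shRad21_2 replicate 1 (0.35). Ncapg and Ncaph kept theirs without 2 of the 9 libraries, the first replicates of shNT and of shRad21_1, with folds of 0.32 to 0.43 and of 0.23 to 0.30 without the other 7.

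Smc6 and Smc5 are the ring pair of the complex that resolves joined DNA molecules. Smc6 had 130.3, 156 and 147 CPM in shRad21_2, 129, 121 and 124 CPM in shRad21_1 and 119, 117 and 113 CPM in shNT. The order of the groups was the same for every library, with shRad21_2 above shRad21_1 and shRad21_1 above shNT. Smc6 rose by 0.31 (SE 0.08, edgeR adjusted p = 0.00937) under shRad21_2 against shNT, also without each of the 9 libraries. That call was lost with the close pairs summed, and Smc6 did not pass under shRad21_1. Between the hairpins it was called without shRad21_2 replicate 1 (0.28). Smc5 had 98.7, 116 and 89.4 CPM in shRad21_2, 96.9, 93.1 and 99.8 CPM in shRad21_1 and 98.7, 89.3 and 87.2 CPM in shNT. Its groups overlapped and it did not pass in any comparison.

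The 7 cohesion genes went both ways. Under shRad21_2 against shNT 3 rose (42.9%, where 21.1% of all genes did), 1 fell and 3 did not pass, with a median of 0.12. Called in either direction were 57.1%, against 43.6% of all genes. Under shRad21_1 1 rose (14.3%, where 4.19% of all genes did). Esco1, an acetyltransferase that locks cohesin onto DNA throughout interphase, was the 1 gene of the 47 that rose under both hairpins. It lies on chromosome 18 and had 24.9, 23.6 and 22.1 CPM in shRad21_2, 27.0, 25.8 and 25.5 CPM in shRad21_1 and 18.4, 17.7 and 17.5 CPM in shNT. The knockdown libraries lay above all shNT libraries, and the shRad21_1 libraries above the shRad21_2 libraries. Esco1 rose by 0.40 (SE 0.08, edgeR adjusted p = 0.00381) under shRad21_2 and by 0.54 (SE 0.08, adjusted p = 0.00460) under shRad21_1, in both cases without each of the 9 libraries. With the close pairs summed the call under shRad21_1 was lost (adjusted p = 0.0938, in a range of 6.11e-07 to 0.0938 over 20 alternatives). Esco2, the acetyltransferase of S phase, averaged 45.6 ± 2.39 CPM in shRad21_2, 42.5 ± 2.72 CPM in shRad21_1 and 41.9 ± 2.19 CPM in shNT and did not pass.

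Hdac8, the deacetylase that removes the acetyl mark set by Esco1 and Esco2 so that cohesin can be used again, was the 1 gene of the 47 that fell under shRad21_2. It had 9.99, 9.56 and 11.4 CPM in shRad21_2, 10.5, 10.9 and 11.2 CPM in shRad21_1 and 13.4, 13.9 and 15.4 CPM in shNT. All 6 knockdown libraries lay below all 3 shNT libraries. Hdac8 fell by 0.47 (SE 0.11, edgeR adjusted p = 0.00705) on the log2 scale under shRad21_2, also without each of the 9 libraries but not with the close pairs summed. Under shRad21_1 its fold was -0.39 (SE 0.11, adjusted p = 0.0509), and it was called without shRad21_2 replicate 2 (-0.39) or shRad21_2 replicate 3 (-0.40).

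Espl1, the protease separase, had 129.6, 130.2 and 111 CPM in shRad21_2, 107, 97.3 and 98.1 CPM in shRad21_1 and 106, 89.1 and 87.8 CPM in shNT. Its shRad21_2 libraries lay above all others, replicate 3 by a few CPM. Espl1 rose by 0.39 (SE 0.10, edgeR adjusted p = 0.0103) against shNT, also without each of the 9 libraries, and its fold of 0.29 against shRad21_1 (adjusted p = 0.0531) passed without shNT replicate 1 (0.29), shRad21_1 replicate 1 (0.34) or shRad21_2 replicate 3 (0.37). With the close pairs summed Espl1 lost the call against shNT (edgeR adjusted p = 0.0761). Its inhibitor securin, the product of Pttg1, averaged 75.7 ± 5.56 CPM in shRad21_2, 43.8 ± 7.67 CPM in shRad21_1 and 55.8 ± 11.4 CPM in shNT. Pttg1 rose by 0.44 (SE 0.16, adjusted p = 0.0426) against shNT, a call kept without 3 of the 9 libraries, shNT replicate 1 and shRad21_1 replicates 1 and 3, with folds of 0.35 to 0.50 without the other 6. Against shRad21_1 it rose by 0.79 (SE 0.16, adjusted p = 0.00612), the largest fold of the 47 genes between the hairpins, also without each of the 9 libraries.

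Cdca5, the sororin protein that protects acetylated cohesin, averaged 39.9 ± 2.93 CPM in shRad21_2, 35.0 ± 1.73 CPM in shRad21_1 and 37.5 ± 1.95 CPM in shNT. Sgol1, the shugoshin that protects cohesin at centromeres, averaged 41.3 ± 2.73 CPM in shRad21_2, 35.0 ± 1.79 CPM in shRad21_1 and 37.9 ± 7.38 CPM in shNT. Neither passed in the fit of all 9 libraries, and Sgol1 was called against shNT without shNT replicate 1.

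The levels differed widely among the genes once set per length. Per kilobase of exon, Cdc20 had the highest level, at 147 CPM per kb in shRad21_2, 101 CPM per kb in shRad21_1 and 91.8 CPM per kb in shNT. Plk1 and Top2a stood at 96.9 and 80.2 CPM per kb in shRad21_2, 72.7 and 75.4 CPM per kb in shRad21_1 and 75.4 and 78.5 CPM per kb in shNT. Hdac8 was the lowest, at 2.13 CPM per kb in shRad21_2, 2.24 CPM per kb in shRad21_1 and 2.95 CPM per kb in shNT. Among the kleisins, Ncaph and Ncaph2 stood close together, at 41.5 and 47.1 CPM per kb in shRad21_2, 34.3 and 39.4 CPM per kb in shRad21_1 and 32.8 and 41.4 CPM per kb in shNT. Ncapd3 and Ncapg2 of condensin II lay between 9.39 and 10.9 CPM per kb, and Ncapd2 of condensin I at 67.2 CPM per kb in shRad21_2, 50.4 CPM per kb in shRad21_1 and 53.1 CPM per kb in shNT.

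Transcript length moved with the differences among the shRad21_2 libraries. Exon length ran from 1.53 kb for Ccnb2 to 15.4 kb for Cenpf. Across the 47 genes, the log2 CPM of replicate 2 minus replicate 3 in shRad21_2 correlated with log10 exon length at a Pearson r of 0.72, and that of replicate 1 minus replicate 2 at -0.66. Over the 13453 tested genes with a length these values were 0.38 and -0.19. In shNT, replicate 2 minus replicate 3 gave 0.41 for the 47 genes and 0.06 over all. The points are genes that share the same libraries, so these values are a description with no test.

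Of the 3 longest of the 47, Cenpf and Mki67 were high in replicate 2 of shRad21_2 and low in replicate 3. Smc6, at 12.5 kb, had 156 CPM in replicate 2 and 147 CPM in replicate 3 and was lowest in replicate 1. The fold of shRad21_2 against shRad21_1 correlated with length at -0.50 over the 47 genes and -0.07 over all genes, and that of shRad21_2 against shNT at -0.15 and -0.02. The part of length in the folds of single genes was not tested.

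**Figure D5:**
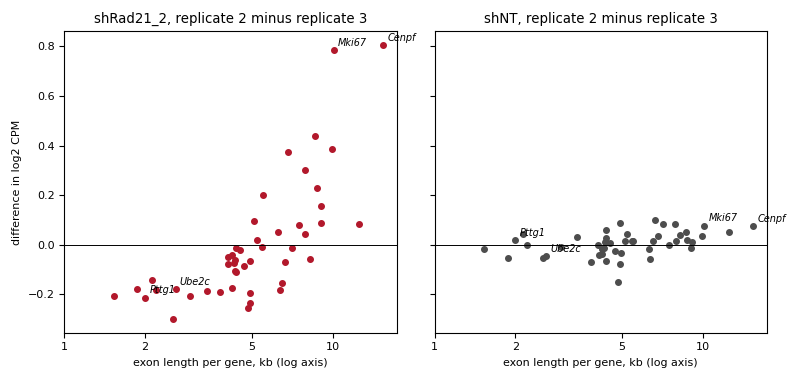
Log2 CPM of replicate 2 minus replicate 3 (up the page) against exon length in kb (across, log axis) for the 47 genes, in shRad21_2 (left) and shNT (right). In shRad21_2 Cenpf and Mki67, among the 3 longest genes, lie highest and r is 0.72; in shNT the points stay near 0 and r is 0.41.

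Other genes of mitosis were counted on a list of 74, of which 73 had an entry and were tested. Under shRad21_2 against shNT 26 rose (35.6%, against 21.1% of all genes) and 1 fell (where 22.5% of all genes did), with a median of 0.27. The 37.0% called in either direction is below the 43.6% of all genes. Between the hairpins 20 rose (27.4%, against 11.9%) and 1 fell, and the 28.8% called in either direction is near the 26.3% of all genes. Under shRad21_1 0 rose and 2 fell, Cdc25b, a phosphatase of Cdk1 (-0.51, edgeR adjusted p = 0.0121), and Spc24, a kinetochore subunit (-0.44, adjusted p = 0.0405). Of all genes, 4.19% rose and 5.63% fell there. With an unadjusted p under 0.05, 1 was higher and 4 were lower, where 1707 and 1888 of the 13560 genes were. The gene that fell under shRad21_2 was Wee1, the kinase that restrains Cdk1 (-0.49, adjusted p = 0.00310). Values of these 3 were known when they were picked.

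Of 8 other kinesins 3 rose under shRad21_2 against shNT and 0 fell, among them Kif4 by 0.39 (edgeR adjusted p = 0.0241) and Kif15 by 0.36 (adjusted p = 0.0268). Of 11 other kinases and partners of cyclin-dependent kinases 3 rose and 1 fell, with Plk4, the kinase of centriole duplication, at 0.50 (adjusted p = 0.00149) and Cks1b at 0.60 (adjusted p = 0.00264). Of 19 kinetochore, checkpoint and passenger genes 6 rose and 0 fell, with Nsl1 at 0.50 (adjusted p = 0.00847) and the checkpoint gene Mad2l1 at 0.42 (adjusted p = 0.0103). The shares that rose were 37.5%, 27.3% and 31.6%, against 21.1% of all genes. Called in either direction were 37.5%, 36.4% and 31.6%, below the 43.6% of all genes.

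Of 15 genes of the anaphase-promoting complex and its enzymes 5 rose and 0 fell, with the subunit Anapc5 at 0.45 (edgeR adjusted p = 7.25e-04) and Ube2s, the enzyme that extends ubiquitin chains, at 0.77 (adjusted p = 7.49e-04). Of 11 spindle and cytokinesis genes 4 rose and 0 fell, with Cep55 at 0.58 (adjusted p = 0.0240) and Racgap1, the partner of Kif23, at 0.37 (adjusted p = 0.0321). The 33.3% and 36.4% of these lists that rose lie above the 21.1% of all genes that rose. They lie below the 43.6% called in either direction. Under shRad21_1 0 of either list passed, with medians of 0.02 and 0.01.

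Regulators and neighbouring phases of the cell cycle were counted beside them. Of 9 genes of MuvB and its partners 5 rose under shRad21_2 against shNT and 0 fell (where 21.1% of all genes rose), with E2f4 at 0.68 (edgeR adjusted p = 6.08e-04) and Tfdp1 at 0.39 (adjusted p = 0.00324). Of 14 S phase genes 5 rose and 0 fell, with the nucleotide synthesis genes Rrm2 at 0.66 (adjusted p = 1.65e-04) and Tk1 at 0.63 (adjusted p = 0.00128). Of the 4 genes of the p53 arm 1 rose, Trp53 at 0.78 (adjusted p = 2.29e-04). Under shRad21_2 the p53 arm, at 25.0%, was near the share of all genes that rose. Under shRad21_1 0 of 9, 1 of 14 and 1 of 4 rose and 0 fell, where 4.19% of all genes rose. The p53 arm had a median fold of 0.48 under shRad21_1, with 4 of 4 genes higher at an unadjusted edgeR p under 0.05. Of all 13560 genes, 1707 were higher at that threshold. Against the shNT mean, the median of the p53 arm was 0.82 in replicate 1 of shRad21_1 and 0.22 in replicates 2 and 3.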

How the data were processed

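RNA-seq counts were analysed for 9 libraries in 3 groups, taken from the labels. The deposited table holds raw counts per gene symbol, whole numbers and not normalised by the authors, judging from the values. Per the submitters' processing notes, the tools were FastQC, cutadapt, Trim Galore, Bowtie2 and RSEM with build mm10; no version, annotation, strand setting or rounding of RSEM's estimates is stated there. Reads of overlapping antisense genes or near-identical copies can therefore not be told apart. All count columns belong to labelled samples. The table has 24503 genes, and 6715 had no count in any library. Totals of 34780003 to 46644607 make 3 counts worth 0.0643 to 0.0863 CPM.

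The main test was edgeR's quasi-likelihood test (edgeR 4.0.16, R 4.3.3; TMM, filterByExpr by group, 13560 genes), two-sided, in 1 fit of 3 group means, with Benjamini-Hochberg adjustment over all genes tested and a threshold of 0.05. CPM are on TMM-scaled totals, and per-library log2 values add 0.1 CPM. Exon lengths are the union of exons in GENCODE for mm10, known for 13453 genes. The test was run on simulated counts drawn independently for each library. Those counts lack the close pairs and the differences of first replicates seen here, so they cannot check the test under them. The 47 genes, the lists of other genes and the markers were chosen with earlier results of these data known. Values per library are given for Rad21, for members called under shRad21_1, and in each role for the 3 members with the smallest p under shRad21_2, and also for Ccnb2, Smc2 and, in shRad21_2, Cenpf, chosen after their values were seen; of each list of other genes, the 2 called genes with the smallest p are named.

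Same-numbered replicates of shRad21_1 and shNT deviated together (correlations over genes of 0.25, 0.13 and 0.13). The correlation of different numbers was no lower for replicates 2 and 3 (0.17), so these values cannot tell whether the numbers pair these groups. For shRad21_2 the same-number correlations were 0.07, 0.08 and 0.10 with shNT and 0.09, 0.01 and 0.02 with shRad21_1. The main fit used no block, and a fit with the replicate number as a block was an alternative. Alternatives were DESeq2 1.42.0 size factors and its Wald test, library totals, limma-voom (limma 3.58.1), no filter, a filter of 1 CPM and 10 counts in 3 libraries, a replicate block, each library left out, close pairs summed, first replicates left out and fits of 2 groups. Single genes were recomputed where the unadjusted p was under 0.1.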

Additional observations from a re-analysis of the deposited data

How the results depend on the processing

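Of 79 single-gene folds recomputed under 20 alternatives each, 1580 values in all, 1253 kept their direction and their side of the threshold, 156 lost the call, 171 gained it and 0 changed sign. The counts moved more. Under shRad21_1 against shNT, 1331 genes were called. The count was 2042 with the DESeq2 Wald test, 130 with close pairs summed, 2800 without the first replicate of every group, and 460 to 1599 with single libraries left out. Members called higher were 0 with close pairs summed, where 0.469% of all genes were higher. Members called lower, 0 otherwise, were 1 with library totals, limma-voom, no filter, the stricter filter, the 2 groups alone or the first replicates of shRad21_1 and shNT left out, 2 with the DESeq2 Wald test or the replicate block, 3 without the first replicate of every group, and 0 to 1 with single libraries left out. Of all genes, 4.15% to 7.05% were lower in the first 6 of these fits. The share was 8.35% with the Wald test, 6.05% with the block and 11.5% without the first replicate of every group. With single libraries left out it was 2.10% to 6.97%.

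Under shRad21_2 against shNT, 5917 genes were called, and 3707 with close pairs summed. Of all genes, 11.6% were higher with close pairs summed and 14.1% to 24.3% with single libraries left out. The share was 16.0% with library totals and 21.8% with the replicate block. It was 23.0% without the first replicates of shRad21_1 and shNT and 26.1% without the first replicate of every group. Members called higher were 11 with library totals, 29 with the replicate block, 3 with close pairs summed (0 lower), 37 without the first replicates of shRad21_1 and shNT, 38 without the first replicate of every group, and 6 to 31 with single libraries left out. Under shRad21_2 against shRad21_1, 3563 genes were called: 1270 with close pairs summed, 2233 with the 2 groups alone, 5650 without the first replicate of every group, and 2045 to 4486 with single libraries left out. Members called higher were 30 with the block, 3 with close pairs summed, 34 without the first replicates of shRad21_1 and shNT, 36 without the first replicate of every group, and 5 to 33 with single libraries left out. Of all genes, 12.3% were higher with the block and 2.56% with close pairs summed. The share was 15.8% without the first replicates of shRad21_1 and shNT and 19.5% without the first replicate of every group. It was 5.46% to 14.8% with single libraries left out.

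The cause of these moves was not tested. Summing close pairs and leaving out libraries also leave fewer libraries in the fit. The labels state no pairing for any comparison, so counts under the block, the 29 and 30 among them, rest on the replicate number alone. Close pairs and first replicates of shRad21_1 and shNT left out were alternatives chosen with earlier results known, and the fit without the first replicate of every group was chosen after seeing the data. Every member had at least 326 counts in every library.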
